A study of Homo sapiens with 6 samples.

Results

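The mitochondrial chromosome of human cells carries 37 genes, and all 37 were found among the 58302 genes of the deposited tables by their GENCODE 29 symbols on that chromosome. They comprise 13 mRNA genes, 2 rRNA genes and 22 tRNA genes. RNA was sequenced from 6 samples of SK-N-BE(2), a MYCN-amplified human neuroblastoma cell line, to ask which transcripts depend on Prp19 (gene PRPF19), a core factor of the pre-mRNA splicing machinery. One group of 3 samples was given a negative control siRNA (NC) and the other group of 3 was given an siRNA against Prp19 (siPrp19), both for 72 h by the sample labels, while the text of the study gives a shorter time. Both groups are the same line in the same medium, the knockdown is transient and partial, and the labels number the samples 1 to 3 in each group without saying whether a number marks a culture, a day or a library batch, so p-values measure only the spread between these samples. Levels are FPKM, the fragments counted on a gene per kilobase of the gene and scaled by a depth value for each library. Over genes above 0 in all 6 samples, the median ratio of a sample to the geometric mean of the samples was 1.007 in each. The deposited values thus already shared a common median level. Genes shorter than the sequenced fragments, which are the tRNA genes and MT-ATP8, can be compared with longer genes on this scale only with that limit.

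Read numbers were recovered from the FPKM values. Rounded and summed over all genes matched to GENCODE 29, they came to between 19058782 and 24181789 reads per sample. PRPF19 stood at 53.1, 53.1 and 64.9 FPKM in NC replicates 1 to 3 and at 21.8, 28.5 and 33.6 FPKM in siPrp19 replicates 1 to 3. The groups did not overlap, and the siPrp19 mean of 27.9 ± 5.91 FPKM (SD, n = 3) was 49.0% of the NC mean of 57.0 ± 6.83 FPKM, although the limma fit without replicate numbers gave it an adjusted p of 0.9999. With the replicate numbers in the fit, its adjusted p was 0.190 by limma on log2 FPKM and 1.03e-11 by voom on the recovered reads. All 10 genes of a neuroblastoma identity list were detected, with MYCN between 801 and 1215 FPKM, and all 10 differed between replicate numbers in the limma F-test, against 49.6% of all genes tested, among them DBH, the enzyme that makes noradrenaline, at 3.49 to 44.2 FPKM. The 5 leukocyte markers summed to between 0.672 and 1.56 FPKM with CD3E listed at 0 in every sample, the 5 epithelial markers to between 2.55 and 4.06 FPKM, and the 6 fibroblast markers to between 120 and 151 FPKM, where COL1A2 was at most 0.0453 FPKM and LUM reached 57.4 FPKM. Same-numbered samples deviated together over all genes, and replicate 3 was the highest sample of both groups in 20 of the 37 mitochondrial genes, against 30.6% of all genes tested.

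Human mitochondrial DNA is a compact circle with almost no space between genes. Each strand is transcribed into long precursors that span many genes, and the transcripts are released by cutting out the tRNAs that lie between them. The heavy-strand precursor carries both rRNAs, most tRNAs and every mRNA except MT-ND6, which is read from the light strand together with the remaining tRNAs. The mRNAs encode core subunits of respiratory complexes I, III and IV and of ATP synthase, the rRNAs form the mitochondrial ribosome, and the tRNAs serve translation inside the organelle. Since all genes of a strand can start from the same precursor, differences between their steady-state levels are usually ascribed to processing and decay, and the balance of rRNA, mRNA and tRNA is commonly read beside their sum.

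The compactness of the genome is visible where coding sequences share bases. MT-ATP8 and MT-ATP6, which encode both mitochondrial subunits of ATP synthase, overlap by 46 bases on the + strand (hg38, chrM:8527-8572), and MT-ND4L and MT-ND4, complex I subunits, overlap by 7 bases (chrM:10760-10766). These overlaps are shown because reads on them cannot be given to 1 gene with certainty, and the shared bases are in capitals with 12 bases on each side, from chrM:8515-8584 and chrM:10748-10778.
MT-ATP8 and MT-ATP6: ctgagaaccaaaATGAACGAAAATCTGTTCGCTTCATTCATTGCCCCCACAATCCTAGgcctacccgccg
MT-ND4L and MT-ND4: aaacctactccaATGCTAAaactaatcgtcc

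A cluster of light-strand tRNA genes lies between MT-ND2 and MT-CO1. MT-TA (alanine, chrM:5587-5655), MT-TN (asparagine, chrM:5657-5729), MT-TC (cysteine, chrM:5761-5826) and MT-TY (tyrosine, chrM:5826-5891) are all on the - strand, MT-TA and MT-TN are 1 base apart, and MT-TC and MT-TY share 1 base. MT-TP (proline, chrM:15956-16023) is a further - strand gene at the other end of the gene map. The sequences below are those of the 4 tRNA genes with the most reads, and of MT-TA, whose level was lowest of the cluster. They are written 5′ to 3′ on the strand of the gene as in the GENCODE 29 transcripts, with the anticodon in capitals.
MT-TN: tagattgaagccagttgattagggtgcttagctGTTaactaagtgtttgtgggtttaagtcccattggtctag
MT-TC: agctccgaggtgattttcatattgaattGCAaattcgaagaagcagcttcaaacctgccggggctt
MT-TY: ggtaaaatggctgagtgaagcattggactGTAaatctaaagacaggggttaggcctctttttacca
MT-TP: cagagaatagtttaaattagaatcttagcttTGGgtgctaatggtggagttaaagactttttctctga
MT-TA: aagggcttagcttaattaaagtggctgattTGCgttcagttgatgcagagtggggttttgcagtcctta

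Mitochondrial genes took a small but variable share of each library. The share of recovered reads on the mitochondrial chromosome was 3.18%, 3.09% and 5.61% in NC replicates 1 to 3 and 3.34%, 3.48% and 5.98% in siPrp19 replicates 1 to 3, from 523024 to 1304159 reads. The base of this share was the reads of genes whose values came to whole reads in every sample. That base is smaller than the totals over all matched genes given above. Replicate 3 was the highest of each group. In bulk libraries such as these, a lower content of mitochondria per cell and less RNA per mitochondrion cannot be told apart. Of the reads on the mitochondrial chromosome, mRNA genes held 61.1% to 86.3%, rRNA genes 12.9% to 38.3% and tRNA genes 0.609% to 0.782% in the 6 samples. The labels do not say whether RNA was selected by poly(A) tail or depleted of ribosomal RNA, which bears on the share of each class.

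The rRNA genes sit next to each other at the start of the heavy-strand transcript, separated by the tRNA gene MT-TV. MT-RNR1, the 12S rRNA of the small ribosomal subunit (chrM:648-1601), stood at 804, 1613 and 465 FPKM in NC replicates 1 to 3 and at 851, 2019 and 517 FPKM in siPrp19 replicates 1 to 3. MT-RNR2, the 16S rRNA of the large subunit (chrM:1671-3229), stood at 3829, 5982 and 3786 FPKM in the NC samples and at 4100.0, 6899 and 4304 FPKM in the siPrp19 samples. Both were highest in replicate 2 of each group, and MT-RNR1 was lowest in replicate 3 of each group. The level of MT-RNR2 was 3.42 to 8.33 times that of MT-RNR1, with the smallest ratio in replicate 2 and the largest in replicate 3 of each group.

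Complex I, the NADH dehydrogenase that feeds electrons into the respiratory chain, takes 7 subunits from mitochondrial DNA. MT-ND4 (chrM:10760-12137) stood at 2543, 2423 and 4650.5 FPKM in NC replicates 1 to 3 and at 2736, 2855 and 5196 FPKM in siPrp19 replicates 1 to 3. MT-ND4L (chrM:10470-10766), translated from the same mature transcript, stood at 2627, 2099 and 4748 FPKM in the NC samples and at 2726, 2490.4 and 4928 FPKM in the siPrp19 samples. These were the most abundant complex I mRNAs, and the ratio of MT-ND4 to MT-ND4L stayed between 0.968 and 1.15 in all 6 samples.

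The other complex I mRNAs were lower. MT-ND3 (chrM:10059-10404) stood at 925, 1212 and 2748 FPKM in the NC samples and at 724, 1134 and 2748 FPKM in the siPrp19 samples. MT-ND1 (chrM:3307-4262) stood at 678, 904 and 1950.1 FPKM in the NC samples and at 572, 891 and 2016 FPKM in the siPrp19 samples. MT-ND2 (chrM:4470-5511) stood at 565, 875 and 1748 FPKM in the NC samples and at 521, 882 and 1700.3 FPKM in the siPrp19 samples. In each of these 3 genes replicate 1 was lowest and replicate 3 highest in both groups. MT-ND5 (chrM:12337-14148) stood at 624, 688 and 1331 FPKM in the NC samples and at 560.3, 757 and 1332 FPKM in the siPrp19 samples. MT-ND6 (chrM:14149-14673, - strand), the only mRNA gene of the light strand, stood at 698, 859 and 1824 FPKM in the NC samples and at 737, 1001 and 2032 FPKM in the siPrp19 samples. Both followed the same order of replicate numbers. The library protocol and the counting do not state the use of strand, so reads of MT-ND6 and of transcripts running across it on the opposite strand cannot be told apart.

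Complex IV, the cytochrome c oxidase that reduces oxygen, takes its catalytic subunits from 3 mitochondrial genes. MT-CO1 (chrM:5904-7445) stood at 5314, 3894 and 8817 FPKM in the NC samples and at 5843, 4390.1 and 9673 FPKM in the siPrp19 samples. MT-CO2 (chrM:7586-8269) stood at 2629.7, 2027 and 6087 FPKM in the NC samples and at 2434, 1982 and 6730.1 FPKM in the siPrp19 samples. MT-CO3 (chrM:9207-9990) stood at 2912, 2015 and 4975 FPKM in the NC samples and at 2627, 1979.8 and 4849 FPKM in the siPrp19 samples. MT-CO1 was the most abundant mRNA in 6 of 6 samples, the 3 genes together made 40.3% to 50.3% of the summed mRNA level, and in all 3 replicate 2 was lowest and replicate 3 highest in both groups. The order of MT-CO2, MT-CO3, MT-ND4 and MT-ND4L differed between samples within ranks 2 to 6. It went with the replicate number in part, since MT-CO2 was above MT-CO3 in replicates 2 and 3 of both groups and below it in replicate 1 of both. MT-ND4 was above MT-CO2 in replicate 2 of both groups, and also in siPrp19 replicate 1. Differences between these genes were not tested.

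MT-CYB (chrM:14747-15887), cytochrome b, the only mitochondrially encoded subunit of complex III, stood at 643, 621 and 1316 FPKM in the NC samples and at 591, 591 and 1325 FPKM in the siPrp19 samples. MT-ATP6 (chrM:8527-9207), part of the proton channel of ATP synthase, stood at 1721, 1571 and 4718 FPKM in the NC samples and at 1519, 1589 and 4825 FPKM in the siPrp19 samples. MT-ATP8 (chrM:8366-8572), the short accessory subunit, stood at 91.9, 190.4 and 471 FPKM in the NC samples and at 82.7, 186 and 399 FPKM in the siPrp19 samples. MT-ATP8 was the least abundant mRNA in 6 of 6 samples, and although it shares a transcript with MT-ATP6, its level was lower by a factor of 8.25 to 18.7. That factor was largest in replicate 1 of both groups, at 18.7 and 18.4, against 8.25 and 8.55 in replicate 2 and 10.0 and 12.1 in replicate 3. MT-ATP8 has 207 bases, of which 46 are shared with MT-ATP6, and how the authors counted reads that overlap both genes is not stated.

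**Figure D1:**
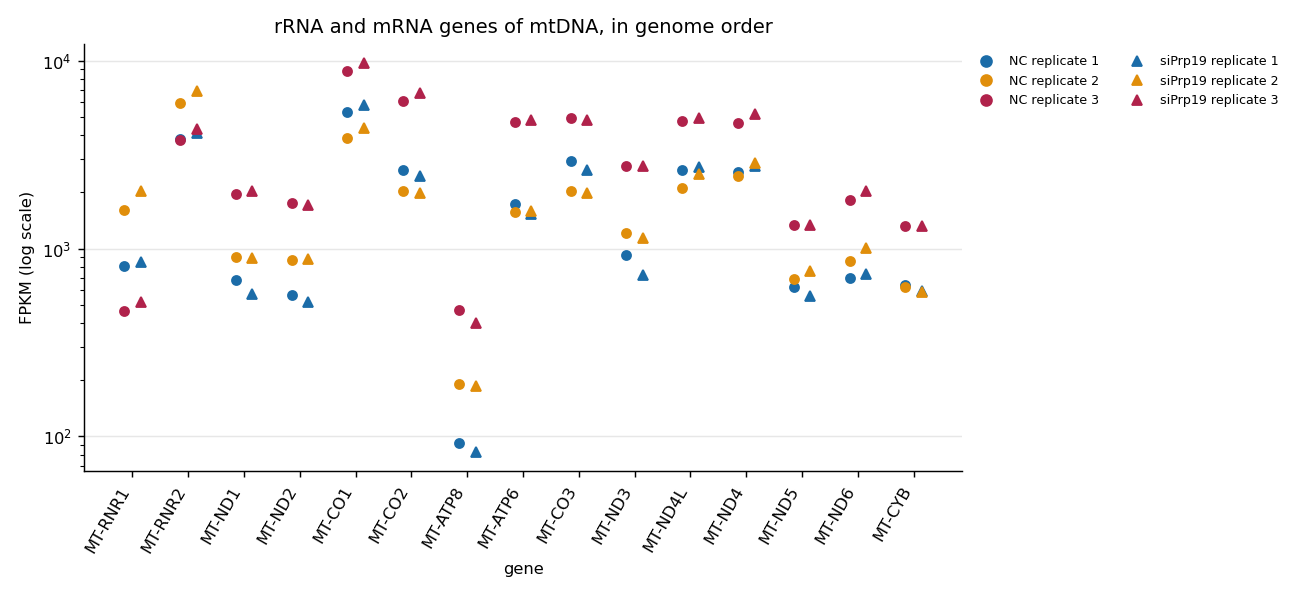
FPKM on a log scale (y axis) of the 2 rRNA and 13 mRNA genes in genome order (x axis), with 1 point per sample, circles for NC, triangles for siPrp19 and a colour for each replicate number. Same-coloured points lie together and replicate 3 is highest for all 13 mRNAs, while for both rRNAs replicate 2 is highest.

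The mean levels of the tRNA genes spanned more than 3 orders of magnitude, and the genes with the highest means were on the - strand, which also held the gene with the lowest, MT-TQ (1.03 FPKM). Of the 8 tRNA genes on the - strand, 4 averaged 100 FPKM or more, and of the 14 on the + strand, 0 did. MT-TN stood at 1198, 933 and 2109 FPKM in NC replicates 1 to 3 and at 1267, 961 and 2452 FPKM in siPrp19 replicates 1 to 3. MT-TC stood at 1105, 880.2 and 2048 FPKM in the NC samples and at 853, 907 and 2208 FPKM in the siPrp19 samples. These neighbours were the highest of the tRNA genes in every sample. MT-TP stood at 438, 306 and 520.4 FPKM in the NC samples and at 487, 378 and 608 FPKM in the siPrp19 samples. MT-TY stood at 131, 175 and 350.1 FPKM in the NC samples and at 119, 156 and 302 FPKM in the siPrp19 samples. MT-TN, MT-TC, MT-TP and MT-TY, all of the - strand, together held 82.4% to 95.7% of the tRNA reads of a sample.

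The other 18 tRNA genes had means between 1.03 and 90.5 FPKM and between 0 and 192 reads in a sample. The highest of them was MT-TL1 (leucine, chrM:3230-3304), which follows MT-RNR2 directly and stood at 42.8, 114 and 125 FPKM in the NC samples and at 39.9, 123 and 98.4 FPKM in the siPrp19 samples. MT-TH (histidine, chrM:12138-12206), downstream of MT-ND4, stood at 29.9, 36.2 and 80.6 FPKM in the NC samples and at 17.2, 53.0 and 60.2 FPKM in the siPrp19 samples. Close neighbours differed, since MT-TA, 1 base from MT-TN, stood at 2.66, 6.58 and 5.13 FPKM in the NC samples and at 0, 8.36 and 1.17 FPKM in the siPrp19 samples, with at most 12 reads. In all, 8 of the 22 tRNA genes had a mean under 10 FPKM and 2 were listed at 0 in a sample. All tRNA genes are 59 to 75 bases long, whereas fragments of 250 to 300 bp were preferred during library preparation, so reads of mature tRNAs and of longer transcripts over the same bases cannot be told apart here. How reads over neighbouring genes were counted and whether strand was used are not stated. Both bear on the differences between neighbours and between strands.

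**Figure D2:**
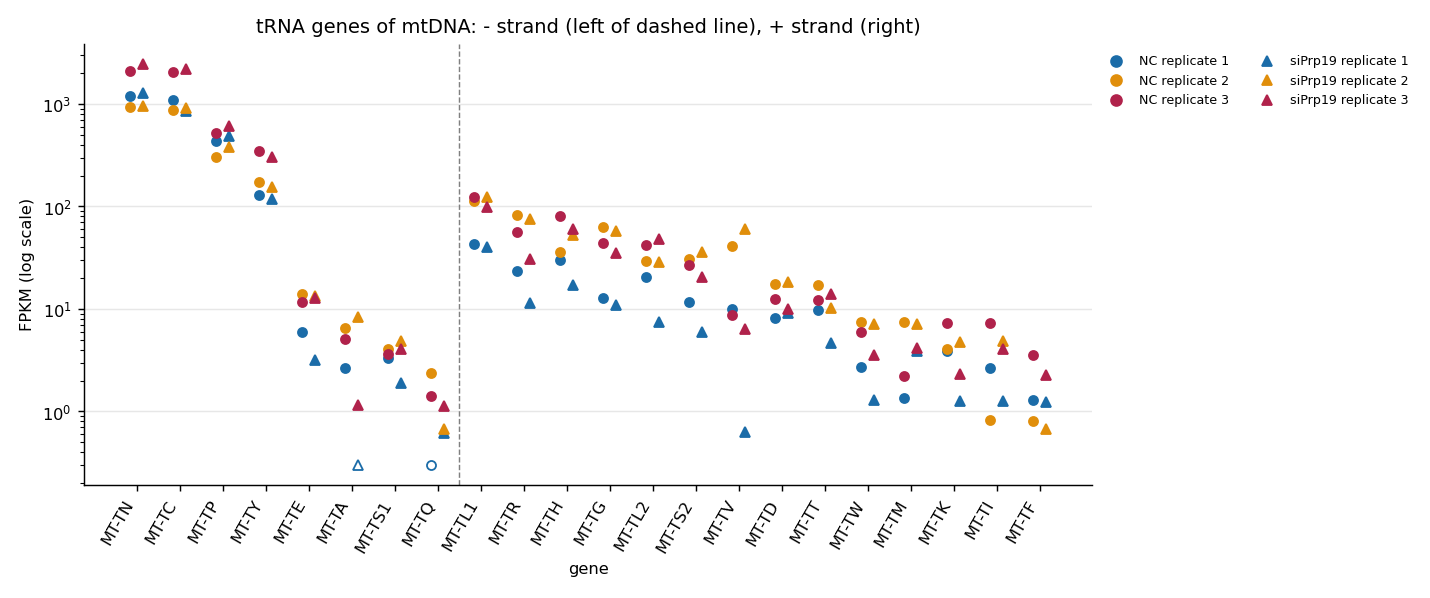
FPKM on a log scale (y axis) of the 22 tRNA genes (x axis), the 8 on the - strand left of the dashed line and the 14 on the + strand right of it, each ordered by mean level, with 1 point per sample, circles for NC, triangles for siPrp19 and a colour for each replicate number. Open points at the foot are values listed at 0, and only MT-TN, MT-TC, MT-TP and MT-TY, all on the - strand, have means above 100 FPKM.

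Replicate numbers separated most of the mitochondrial genes. A limma F-test of the replicate numbers, in a fit that also held the treatment, called 31 of the 37 genes at an adjusted p under 0.05, against 49.6% of all genes tested. All 13 mRNA genes passed, with adjusted p from 0.00047 to 0.0026, both rRNA genes passed, with adjusted p of 0.000781 for MT-RNR1 and 0.00261 for MT-RNR2, and 16 of the 22 tRNA genes passed. By voom on the recovered reads the same test called 27 of the 37 genes, against 63.9% of all genes, and of the tRNA genes it called 12 of 22, or 54.5%, which is below that share. The median range over the 3 replicate numbers was 1.42 on the log2 scale for mRNA genes, 1.29 for rRNA genes and 1.61 for tRNA genes, beside 0.46 for all genes tested. Log2 differences here are of FPKM plus 0.1, which understates changes of low genes. Counting error of few reads works the other way and widens the ranges of low tRNA genes. MT-TV, with 1 read in siPrp19 replicate 1, differed by 4.19 between replicates 2 and 1, and MT-TA, with 0 reads there, by 3.84. Without replicate 3 of both groups, the test called 8 of 13 mRNA genes, 2 of 2 rRNA genes and 11 of 21 tRNA genes tested, against 19.2% of all genes. With replicates 1 and 3 only it called 13 of 13 mRNA genes, 1 of 2 rRNA genes and 15 of 21 tRNA genes, against 24.6%, and the call lost was that of MT-RNR2. All 10 neuroblastoma identity genes and 9 of 16 genes of mitochondrial DNA transcription passed the same test, and their part in these differences was not tested.

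The classes did not share 1 order of replicate numbers, although in 27 of 37 genes the 3 numbers were in the same order in NC and siPrp19, against 54.9% of all genes tested. Replicate 3 was the highest sample of both groups in 13 of 13 mRNA genes, 0 of 2 rRNA genes and 7 of 22 tRNA genes, together 20 of 37, against 30.6% of all genes tested. Replicate 2 was the highest of both groups in 0 of 13 mRNA genes, 2 of 2 rRNA genes and 10 of 22 tRNA genes, together 12 of 37, against 29.4%. Both replicate 3 samples were above both replicate 1 samples in 31 of 37 genes, against 34.2% of all genes, and above both replicate 2 samples in 20 of 37, against 37.0%.

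Among the mRNAs, the mean of replicate 3 was 1.66 to 4.97 times that of replicate 1 and 1.84 to 3.19 times that of replicate 2. The excess over replicate 1 was smallest for MT-CO1, at 0.73 (SE 0.05) on the log2 scale, and largest for MT-ATP8, at 2.31 (SE 0.06). Complexes shared the direction but not the size, since replicate 3 was 1.89 times replicate 1 for the summed complex IV mRNAs, 2.14 times for complex III, 2.26 times for complex I and 3.06 times for ATP synthase. Replicates 1 and 2 did not differ in 1 direction, as replicate 2 was lowest in both groups for 5 mRNAs (MT-CO1, MT-CO2, MT-CO3, MT-ND4L and MT-CYB) and replicate 1 for 6 (MT-ND1, MT-ND2, MT-ATP8, MT-ND3, MT-ND5 and MT-ND6). MT-ATP6 and MT-ND4 had a different lowest sample in the groups.

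The rRNAs did not share the excess of replicate 3 seen in the mRNAs. MT-RNR1 in replicate 3 differed from replicate 1 by -0.75 (SE 0.07) and from replicate 2 by -1.88 (SE 0.07) on the log2 scale, while MT-RNR2 differed from replicate 1 by 0.03 (SE 0.05) and from replicate 2 by -0.67 (SE 0.05). The summed rRNA level was 0.211, 0.392 and 0.0937 times the summed mRNA level in NC replicates 1 to 3 and 0.228, 0.430 and 0.101 times in siPrp19 replicates 1 to 3. The 12S to 16S ratio had the same order, with 0.210, 0.270 and 0.123 in the NC samples and 0.208, 0.293 and 0.120 in the siPrp19 samples. For both ratios the replicate numbers kept 1 order in both groups, with replicate 2 highest and replicate 3 lowest.

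Among the tRNAs, the abundant light-strand genes and the others differed in their order. MT-TN, MT-TC, MT-TP and MT-TY were highest in replicate 3 of both groups. Of the other 18 tRNA genes, 10 were highest in replicate 2 of both groups, against 29.4% of all genes tested. Both replicate 2 samples were above both replicate 1 samples in 16 of the 18, against 34.2% of all genes tested. Some of these orders came from the depth scaling of few reads. MT-TQ had 1 read in siPrp19 replicate 1 and 1 in siPrp19 replicate 2, and MT-TK had 6 reads in NC replicate 1 and 5 in NC replicate 2. MT-TS1, which is in both counts, had 5 reads in every NC sample. MT-TG (glycine, between MT-CO3 and MT-ND3) showed this most evenly, with 12.8, 62.6 and 43.9 FPKM in the NC samples and 11, 57.3 and 35.0 FPKM in the siPrp19 samples, a limma F-test adjusted p of 0.00047 and at most 81 reads. MT-TV, which lies between both rRNA genes, stood at 9.97, 41.1 and 8.79 FPKM in the NC samples and at 0.638, 59.9 and 6.43 FPKM in the siPrp19 samples. Like the rRNAs beside it, MT-TV was highest in replicate 2 of both groups, from 50 and 86 reads.

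**Figure D3:**
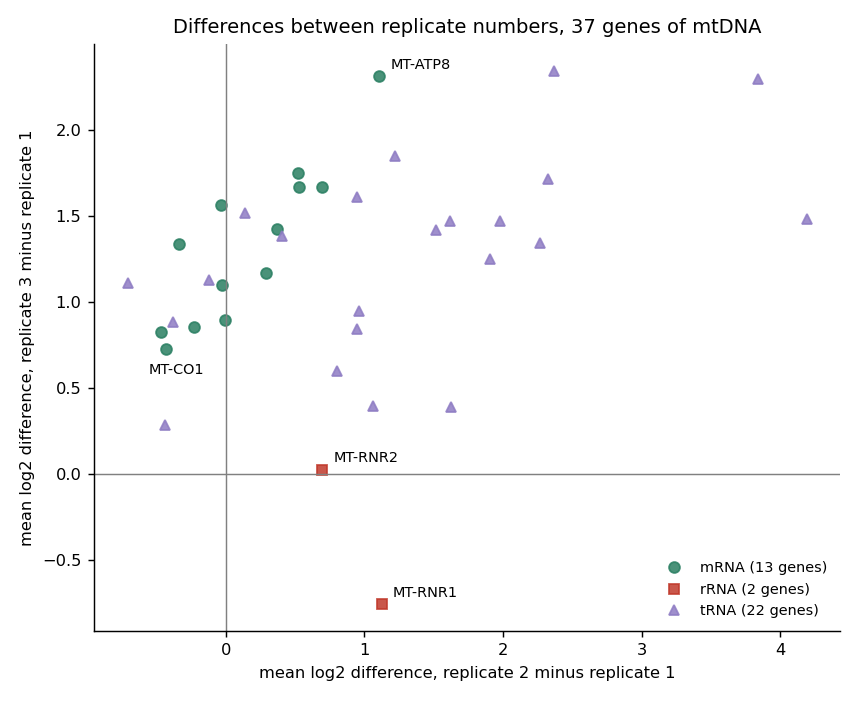
Mean log2 difference over both groups of replicate 2 minus replicate 1 (x axis) and of replicate 3 minus replicate 1 (y axis), with 1 point for each of the 37 genes, circles for mRNA, squares for rRNA and triangles for tRNA. The 13 mRNA genes lie above 0 on the y axis with MT-ATP8 at 2.31, MT-RNR2 lies at 0.03 and MT-RNR1 at -0.75, and most tRNA genes lie to the right.

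Set against these differences, no mitochondrial gene passed the test of siPrp19 against NC in the limma fit without replicate numbers. That fit called 0 of the 37 genes at an adjusted p under 0.05, against 0.0% of the 14462 genes tested, and 0 of 37 had an unadjusted p under 0.05, against 1.56%. The NC and siPrp19 values overlapped for 37 of 37 genes, whereas the groups did not overlap for 5.61% of all genes tested. Log2 differences of siPrp19 minus NC ran from -0.15 to 0.19 over the 15 mRNA and rRNA genes with standard errors from 0.32 to 0.74, so these data could not show a change of that size without the pairing. The median log2 difference was -0.04 for the mRNA genes, 0.17 for the rRNA genes and -0.22 for the tRNA genes, beside -0.0040 for all genes tested.

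With the replicate number as a block, which compares siPrp19 with NC inside each same-numbered pair, the standard errors of these 15 genes were between 0.04 and 0.08. The limma fit with the block called 0 of 37 genes, with adjusted p from 0.202 to 0.999, against 0.0% of all genes tested, and the same fit over genes averaging 5 FPKM or more also called 0 of the members, against 1.57%. At an unadjusted p under 0.05 it held 11 of the 37 genes (4 mRNA, 2 rRNA and 5 tRNA genes), against 15.7% of all genes. When the recovered whole reads were given to voom, the limma method that weights log read counts by their precision, with the same block, 4 of the 37 genes were called and all 4 were higher in siPrp19, against 7.09% of the genes tested in either direction and 2.67% called higher. A voom fit without the block called 0 of the 37 genes and 0.0% of all genes.

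These 4 genes were both rRNAs, MT-CO1 and MT-ND4. MT-RNR2 was higher in siPrp19 by 7.08%, 15.3% and 13.7% in pairs 1, 2 and 3, a voom log2 difference of 0.16 (SE 0.04, limma adjusted p = 0.00999). MT-RNR1 was higher by 5.79%, 25.1% and 11.1%, a voom log2 difference of 0.19 (SE 0.05, limma adjusted p = 0.0171). Pair 2 gave the largest difference for both rRNAs. MT-CO1 was higher by 9.96%, 12.7% and 9.70%, a voom log2 difference of 0.15 (SE 0.04, limma adjusted p = 0.018), and MT-ND4 was higher by 7.61%, 17.8% and 11.7%, with 0.17 (SE 0.04, limma adjusted p = 0.0122). On log2 FPKM with the same block, the limma adjusted p of these 4 genes were 0.218 to 0.256, so they were called by voom only.

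Within pairs, 8 of the 37 genes were higher in siPrp19 in 3 of 3 pairs, against 19.2% of all genes tested, and 8 were lower in 3 of 3, against 21.3%. Those higher were MT-RNR1, MT-RNR2, MT-CO1, MT-ND4L, MT-ND4, MT-ND6, MT-TN and MT-TP. MT-ND6 was higher by 5.48%, 16.6% and 11.4% in pairs 1, 2 and 3 (voom with block, limma adjusted p = 0.0567), and MT-TP by 11.1%, 23.6% and 16.9% (limma adjusted p = 0.0955). Those lower in 3 of 3 pairs were MT-ATP8, MT-CO3, MT-ND3 and the tRNA genes MT-TF, MT-TW, MT-TY, MT-TG and MT-TR. MT-TF had at most 5 reads in a sample and MT-TW at most 10. In pairs 1 and 2 the reads of MT-TF were the same in both groups, and MT-TW had 9 reads in NC replicate 2 and 10 in siPrp19 replicate 2. Their lower FPKM in those pairs came from the depth scaling. MT-ATP8 differed by -10.02%, -2.37% and -15.3% in pairs 1, 2 and 3, MT-CO3 by -9.80%, -1.75% and -2.55%, and MT-ND3 by -21.8%, -6.42% and -0.0137%, none of which passed a test of siPrp19 against NC. The remaining 21 genes were of mixed direction, among them MT-ND1, MT-ND2, MT-CO2, MT-ATP6, MT-ND5 and MT-CYB, and when the FPKM were rescaled to a common total, over all genes or over the genes off the mitochondrial chromosome, MT-CYB was lower in 3 of 3 pairs as well.

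**Figure D4:**
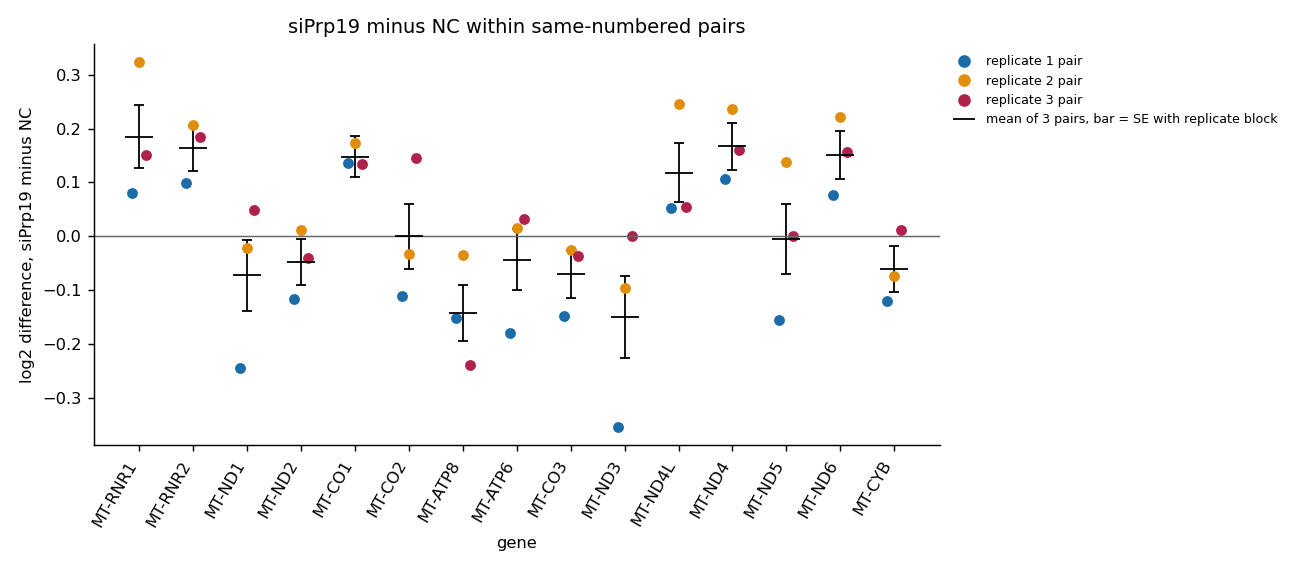
Log2 difference of siPrp19 minus NC (y axis) within each same-numbered pair (coloured points) for the 2 rRNA and 13 mRNA genes in genome order (x axis), with the mean of the 3 pairs as a dash and bars of 1 SE from the fit with the replicate block. All 3 points are above 0 for MT-RNR1, MT-RNR2, MT-CO1, MT-ND4L, MT-ND4 and MT-ND6, and no other gene has all 3 points above 0.

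Summed levels of the classes did not separate the groups. The summed mRNA level was 21972, 19379 and 45384 FPKM in NC replicates 1 to 3 and 21672, 20729 and 47754 FPKM in siPrp19 replicates 1 to 3, means of 28911 ± 14325 and 30052 ± 15338 FPKM (SD, n = 3, exact permutation p = 0.70). The summed rRNA level was 4633, 7595 and 4251 FPKM in the NC samples and 4951, 8918 and 4821 FPKM in the siPrp19 samples, means of 5493 ± 1830.3 and 6230.0 ± 2329 FPKM (SD, n = 3, exact permutation p = 0.50). The summed tRNA level was 3065, 2774 and 5483 FPKM in the NC samples and 2848, 2916 and 5931 FPKM in the siPrp19 samples (exact permutation p = 0.80). In each class the groups overlapped and the difference of the means, 3.94%, 13.4% and 3.28%, was smaller than the SD of either group. That SD includes the differences between replicate numbers, and these permutation tests did not use the pairing.

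Within pairs, the rRNA sum was higher in siPrp19 by 6.85%, 17.4% and 13.4%, and the rRNA to mRNA ratio by 8.33%, 9.77% and 7.77%. The ratio of MT-ND6 to the summed level of the 12 heavy-strand mRNAs was 0.0328, 0.0464 and 0.0419 in the NC samples and 0.0352, 0.0507 and 0.0444 in the siPrp19 samples, higher by 7.18%, 9.47% and 6.16% within pairs (two-sided exact permutation p over the groups = 0.60). The share of reads on the mitochondrial chromosome was also higher in 3 of 3 pairs, whereas the mRNA and tRNA sums were higher in 2 of 3 and the 12S to 16S ratio in 1 of 3. Over these 7 measures the adjusted p was 0.933 for 6 and 1.0 for the 12S to 16S ratio, by two-sided exact permutation tests. These tests compared the groups without the pairing, so they do not measure the differences within pairs. A comparison of 3 with 3 samples cannot give an exact p below 0.10.

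**Figure D5:**
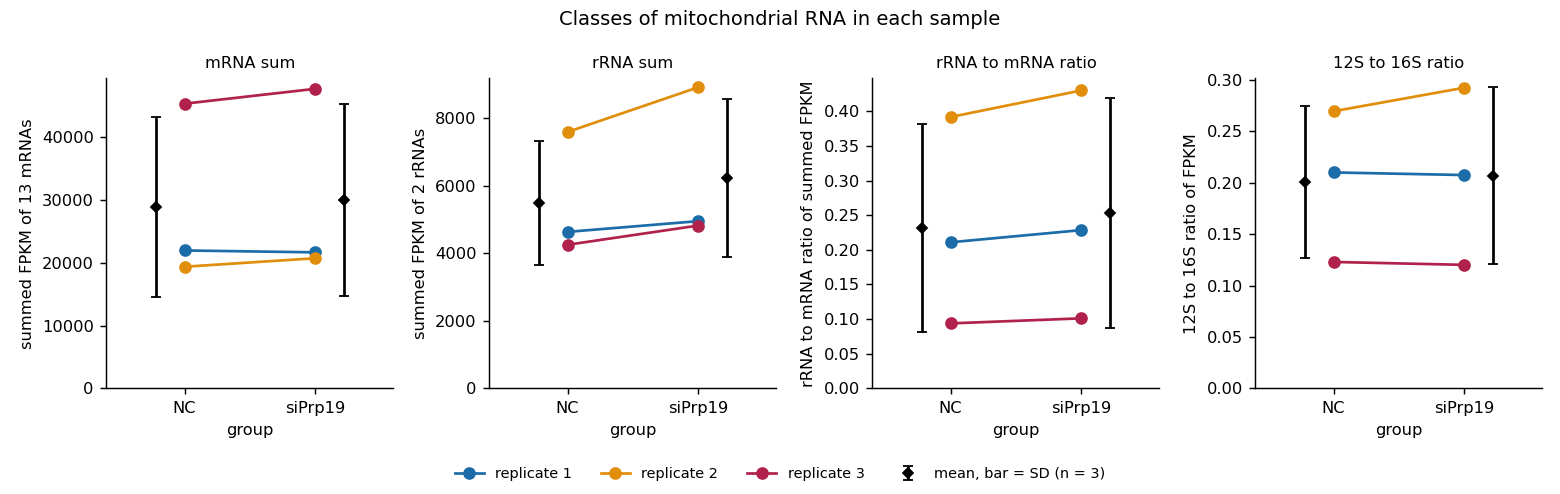
Summed FPKM of the 13 mRNAs, summed FPKM of the 2 rRNAs, the rRNA to mRNA ratio and the 12S to 16S ratio (y axes, from 0) in NC and siPrp19 (x axes), with a line joining the samples of each replicate number and diamonds for the group means with bars of 1 SD (n = 3). Replicate 3 is highest for mRNA at 45384 and 47754 FPKM, where the lines of replicates 1 and 2 lie close together. Replicate 2 is highest for rRNA and rises by 17.4%, while the lines of replicates 1 and 3 lie close together. For both ratios replicate 3 is lowest.

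The nucleus holds many copies of mitochondrial sequence, and their reads can be mistaken for those of the organelle. Of 407 such annotated copies in the tables, 278 were listed at 0 in all 6 samples and 3 averaged 1 FPKM or more. MTATP6P1 (hg38, chr1:633696-634376) stood at 86.8, 96.1 and 251 FPKM in NC replicates 1 to 3 and at 88.6, 87.9 and 262 FPKM in siPrp19 replicates 1 to 3. MTND2P28 (chr1:629640-630683) stood at 25.8, 45.4 and 102 FPKM in the NC samples and at 25.4, 51.0 and 95.9 FPKM in the siPrp19 samples. MTCO1P12 (chr1:631074-632616) stood at 13.01, 15.3 and 36.04 FPKM in the NC samples and at 15.7, 16.4 and 44.1 FPKM in the siPrp19 samples. All 3 lie close together on chromosome 1 and, like the mRNAs they resemble, were highest in replicate 3 of both groups. The next copies, MTND1P8 and MTCO1P28 on chromosome 16, had means of 0.990 and 0.762 FPKM, and all copies together summed to 0.466% to 0.731% of the summed level of the 37 mitochondrial genes in a sample.

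The proteins that transcribe mitochondrial DNA and process its RNA are encoded in the nucleus. Of 16 genes of mitochondrial DNA transcription and replication, the limma fit without block and the one with block called 0 of 16 for siPrp19, and voom with the block called 1 of 15 tested, which was lower, against 7.09% of all genes. Within pairs, 3 of the 16 were higher in 3 of 3 and 4 were lower in 3 of 3, against 19.2% and 21.3% of all genes tested. The gene called was TFAM, the protein that packages mitochondrial DNA and opens its promoters, at 12.2, 14.3 and 13.8 FPKM in the NC samples and 9.67, 11.9 and 11.6 FPKM in the siPrp19 samples. Its log2 difference was -0.28 (SE 0.13 without block, 0.05 with block). The limma adjusted p was 0.9999 without block, 0.196 with block and 0.00438 by voom with block. TFAM was lower in 3 of 3 pairs, and the groups did not overlap. POLG2, the accessory subunit of the mitochondrial DNA polymerase, was higher in 3 of 3 pairs by 0.20 (SE 0.17 without block, 0.05 with block) on the log2 scale. It passed no test of siPrp19 against NC. TWNK, the replicative helicase, differed by -0.20 (SE 0.17 without block, 0.05 with block), lower in 3 of 3 pairs. TWNK did not pass limma with or without the block (limma adjusted p = 0.218 with block), and it was not among the genes given to voom.

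Of 33 genes of mitochondrial RNA processing and decay, 32 were tested, 0 were called with or without the block, and voom with the block called 2 of 30, both lower, a share near the 7.09% of all genes called by that fit. Within pairs, 11 of the 32 were higher in 3 of 3 and 8 were lower in 3 of 3, against 19.2% and 21.3% of all genes tested. Those called were REXO2, an exonuclease of short RNA fragments, and PDE12, a phosphodiesterase that trims poly(A) tails in mitochondria. For REXO2 the log2 difference of FPKM was -0.20 (SE 0.14 without block, 0.05 with block). Its voom difference with block was -0.21 (limma adjusted p = 0.0396). For PDE12 the log2 difference of FPKM was -0.32 (SE 0.26 without block, 0.12 with block). Its voom difference with block was -0.33 (limma adjusted p = 0.0344). Both were lower in 3 of 3 pairs. MRM3, the gene with the largest mean difference among the 11 higher in 3 of 3, a methyltransferase of the 16S rRNA, was higher in 3 of 3 pairs by 0.20 (SE 0.14) on the log2 scale and passed no test of siPrp19 against NC. Of 9 nuclear regulators of mitochondrial content, 7 were tested by limma and 6 by voom, and 0 were called by any of these fits. Within pairs, 2 of the 7 were higher in 3 of 3 and 2 were lower in 3 of 3, against 19.2% and 21.3% of all genes tested. The 3 with the largest mean differences of these 4 were TFEB, NRF1 and PPRC1, with log2 differences of 0.22 (SE 0.24), -0.11 (SE 0.16) and 0.10 (SE 0.26), and none passed a test of siPrp19 against NC. The F-test of replicate numbers called 9 of 16, 20 of 32 and 3 of 7 genes of these lists, against 49.6% of all genes, with median log2 differences of replicate 3 minus replicate 1 of 0.16, 0.20 and 0.17, where the mitochondrial mRNA genes had 1.34 and all genes tested 0.02.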

How the data were processed

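The authors deposited 1 FPKM table per sample (3 NC, 3 siPrp19). Per the submitters' processing notes, reads were aligned to hg38 with HISAT2 2.0.5 and counted with featureCounts 1.5.0-p3. The annotation release, the strand setting and the treatment of overlapping genes are not given in the sources used here. Libraries were made from 3 µg RNA with a NEBNext Ultra kit.

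The 37 genes and the nuclear lists were chosen with earlier results of these data known. Log2(FPKM + 0.1) of the 14462 genes averaging 1 FPKM or more was tested with limma 3.58.1 (R 4.3.3; eBayes with trend, Benjamini-Hochberg over all genes tested) in place of the count test of the study, since the files hold no counts. Whole reads were recovered from FPKM and GENCODE 29 exon lengths for 97.3% of 58039 matched genes (95.9% of those not at 0 in every sample, tolerance 0.05). The 13602 of them that passed the filter entered voom, which called 0 genes without and 965 with the replicate block. The library sizes given to voom were the depth values of the FPKM scale. Class sums were compared by two-sided exact permutation tests (scipy 1.17.1). Steps were run on simulated data with 200 changed genes. There limma called 37.5% of them without and 86.0% with the block, and voom with the block called 92.0%. The F-test called 32.0% of 200 genes changed between replicate numbers. The simulated setting differs from the data, where limma with the block called 0 genes.

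The numbers pair the samples: deviations of same-numbered samples from their group means correlated with r = 0.381, 0.568 and 0.639. Named were all mRNA and rRNA genes, the 6 tRNA genes with the most reads, PRPF19, up to 3 genes of each nuclear list that moved the same way in all pairs, and the 5 highest nuclear copies. Other tRNA genes and the cell type markers given by name were chosen after their values were seen. Alternatives were the block, pseudocount, filter, scaling, variance model, voom and leaving out samples. Precision is limited by 3 samples a group, and low tRNA counts add counting error.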

Additional observations from a re-analysis of the deposited data

How the results depend on the processing

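Leaving out both samples of a replicate number was chosen after seeing the data. The members called for siPrp19 numbered 0 in the limma fit and under every alternative except voom with the replicate block, which called 4. Of all genes, that fit called 965, the limma fit with the block and a mean of at least 5 FPKM called 124, PRPF19 among them, eBayes without trend called 1, and the others 0. The F-test of replicate numbers called 21 to 33 members in the fits with samples left out. Of all genes it called 7175, 4214 without a filter on low values and 2789 to 6308 with samples left out.

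Signs of 34 single genes stayed in 329 of 332 values under the other alternatives. The exceptions, near 0, were MT-CO2 by voom (-0.0059), and MT-ND5 (0.011) and MTATP6P1 (0.0029) scaled by genes off the mitochondrial chromosome. With 1 sample left out the groups hold different replicate numbers, and without the block 25 genes changed sign in at least 1 of 9 fits with a sample or pair left out. Their log2 ranges were MT-RNR1 -0.35 to 0.65, MT-RNR2 -0.075 to 0.38, MT-ND1 -0.57 to 0.37, MT-ND2 -0.49 to 0.39, MT-CO1 -0.16 to 0.47, MT-CO2 -0.54 to 0.47, MT-ATP8 -0.71 to 0.47, MT-ATP6 -0.59 to 0.46, MT-CO3 -0.43 to 0.28, MT-ND3 -0.68 to 0.31, MT-ND4L -0.19 to 0.46, MT-ND4 -0.13 to 0.47, MT-ND5 -0.35 to 0.34, MT-ND6 -0.26 to 0.56, MT-CYB -0.45 to 0.29, MT-TN -0.27 to 0.45, MT-TC -0.52 to 0.28, MT-TY -0.55 to 0.23, MT-TL1 -0.60 to 0.38, MT-TH -0.61 to 0.35, NRF1 -0.21 to 0.025, PPRC1 -0.11 to 0.32, MTATP6P1 -0.54 to 0.47, MTND2P28 -0.45 to 0.54 and MTCO1P12 -0.27 to 0.67. The other 9 kept their sign, with PRPF19 at -1.19 to -0.87, TFAM -0.35 to -0.19, TFEB 0.026 to 0.40, POLG2 0.066 to 0.32, TWNK -0.30 to -0.07, PDE12 -0.49 to -0.12, MRM3 0.10 to 0.30, REXO2 -0.30 to -0.12 and MT-TP 0.013 to 0.40. Percent differences of class measures ranged from -26.7% to 45.4% for the mRNA sum, -11.1% to 40.2% for the rRNA sum, -23.7% to 33.5% for the tRNA sum, -29.1% to 66.3% for the rRNA to mRNA ratio, -18.5% to 24.5% for the 12S to 16S ratio, -14% to 35.9% for the share of reads on the mitochondrial chromosome and -1.48% to 18% for the MT-ND6 ratio. With both replicate 3 samples left out the tRNA sum differed by -1.30%, and with both replicate 2 samples left out the 12S to 16S ratio by -1.61%. With the block, exact sign-flip tests over 3 pairs cannot give a p below 0.25. Apart from the calls named above and in the report, the block changed no call. Reads of low tRNA genes, down to 0, limit what their values can show.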
